A study of Mus musculus with 86 samples.

Results

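The ChIP-seq peaks at 10 imprinted genes outside the H19-Igf2 and Kcnq1 domains were examined in mouse embryonic stem cells: Dlk1, Meg3, Gnas, Snrpn, Mest, Peg3, Usp29, Peg10, Igf2r and Plagl1. Members were all CTCF and SOX2 peaks that lay within 50 kb of the body of one of these genes on mm10 (GRCm38). They came to 312 of the 327957 peaks in the 8 lists analysed here. Because the windows of Dlk1 and Meg3 overlap, as do those of Peg3 and Usp29, the 10 genes form 8 domains. The cells are of strain 129S5/SvEvBrd and were grown in serum with leukaemia inhibitory factor, which keeps stem cells self-renewing. Each factor, CTCF (antibody ab70303, Abcam) or SOX2 (antibody AF2018, R&D), was profiled in 2 libraries from asynchronous cultures and in 2 libraries from mitotic cells. Mitotic cells had been held in 100 ng/ml nocodazole, a microtubule poison, for 6 h and then shaken off the dish, so this group differs from the other in drug exposure and collection as well as in cell cycle stage. Nothing in the labels ties replicates to separate cultures, and their spread may be technical only. The other 78 of the 86 libraries of the series were not analysed here.

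Imprinted genes are expressed from only one parental chromosome, and the choice is carried by DNA methylation set in the egg or the sperm. CTCF is a zinc finger protein that stops cohesin loops and insulates enhancers, and at some imprinted loci it binds only the unmethylated parental copy. SOX2, a transcription factor with an HMG box, occupies enhancers of pluripotency genes in stem cells. The peak lists do not separate the parental chromosomes, so every value below is for both together. All 8 pluripotency genes looked at (Pou5f1, Sox2, Nanog, Esrrb, Klf4, Zfp42, Lin28a and Sall4) had SOX2 peaks of both asynchronous libraries within 50 kb, in 105 regions. So had all 10 imprinted genes and 21 of 23 neighbouring imprinted genes, so such peaks are no check of the labelled cell type.

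The sequences below, 5 in number and taken from RefSeq tables on GRCm38.p6, show selected places at which a peak summit met an annotated promoter or microRNA of these domains. Each promoter is given as the 250 bases before the transcription start, 5′ to 3′ on the strand of the gene. The first is the most upstream Gnas promoter (chr2:174284070-174284319, plus strand), and capitals mark a match, on the opposite strand, to the CTCF core searched for (CC, 3 free bases, AG, 2 free bases, GGC). The second is the Igf2r promoter (chr17:12769707-12769956, minus strand), and capitals mark the bases from one asynchronous CTCF summit to the other. The third is the upstream Mest promoter (chr6:30733256-30733505, plus strand), with capitals from one asynchronous SOX2 summit to the other. The fourth is a downstream Mest promoter (chr6:30737800-30738049, plus strand), with capitals on the letters TGCCGC, read on the opposite strand, the hexamer bound by the imprint-maintaining zinc finger protein ZFP57. The fifth is the hairpin of Mir432 (chr12:109594956-109595030, plus strand), with capitals from one asynchronous CTCF summit to the other.
Gnas upstream promoter: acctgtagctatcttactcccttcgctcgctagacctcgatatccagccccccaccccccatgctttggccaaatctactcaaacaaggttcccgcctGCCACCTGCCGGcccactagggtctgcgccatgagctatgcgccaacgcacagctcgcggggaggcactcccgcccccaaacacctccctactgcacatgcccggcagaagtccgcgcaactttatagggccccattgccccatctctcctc
Igf2r promoter: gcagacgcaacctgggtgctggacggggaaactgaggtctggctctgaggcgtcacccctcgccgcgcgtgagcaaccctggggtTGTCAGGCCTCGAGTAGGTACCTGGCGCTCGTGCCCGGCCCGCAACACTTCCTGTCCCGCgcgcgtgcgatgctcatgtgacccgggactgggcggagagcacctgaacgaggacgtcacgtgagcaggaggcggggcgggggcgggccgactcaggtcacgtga
Mest upstream promoter: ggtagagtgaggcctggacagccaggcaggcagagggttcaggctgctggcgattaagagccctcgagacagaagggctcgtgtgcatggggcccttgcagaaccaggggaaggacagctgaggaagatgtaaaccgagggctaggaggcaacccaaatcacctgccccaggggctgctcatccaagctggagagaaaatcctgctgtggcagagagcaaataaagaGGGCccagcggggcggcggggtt
Mest downstream promoter: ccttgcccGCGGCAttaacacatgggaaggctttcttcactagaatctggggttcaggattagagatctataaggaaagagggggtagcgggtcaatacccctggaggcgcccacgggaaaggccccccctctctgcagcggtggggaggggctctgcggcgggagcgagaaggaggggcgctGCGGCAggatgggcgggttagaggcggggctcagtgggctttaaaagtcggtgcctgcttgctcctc
Mir432 hairpin: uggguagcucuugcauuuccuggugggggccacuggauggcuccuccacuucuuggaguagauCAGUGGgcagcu

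Far fewer peaks were called in the imprinted windows in mitotic than in asynchronous cells, and the gap was wider for SOX2 than for CTCF. The asynchronous CTCF libraries held 59 and 61 peaks in the windows and the mitotic ones 18 and 12, which is 60 ± 1.41 against 15 ± 4.24 (mean ± SD, n = 2 each) and a ratio of 4. SOX2 had 91 and 66 peaks in asynchronous cells and 4 and 1 in mitotic cells, or 78.5 ± 17.7 against 2.5 ± 2.12 (n = 2 each) and a ratio of 31.4. Groups did not overlap for either factor. The two-sided exact permutation p was 0.33 for both, the smallest value that 2 libraries against 2 can give. Over the whole lists the corresponding ratios were 3.84 for CTCF and 64.5 for SOX2, so the CTCF ratio of the windows was near that of the genome. For SOX2 the windows' ratio rested on 5 mitotic peaks: leaving out mitotic replicate 1 gave 78.5 and leaving out replicate 2 gave 19.6. Average coverage, estimated from the lists as reads per 100 bp, was 3.36 and 3.71 in asynchronous and 3.62 and 3.77 in mitotic CTCF libraries, and 2.48 and 1.61 against 2.62 and 1.64 in SOX2 libraries.

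**Figure D1:**
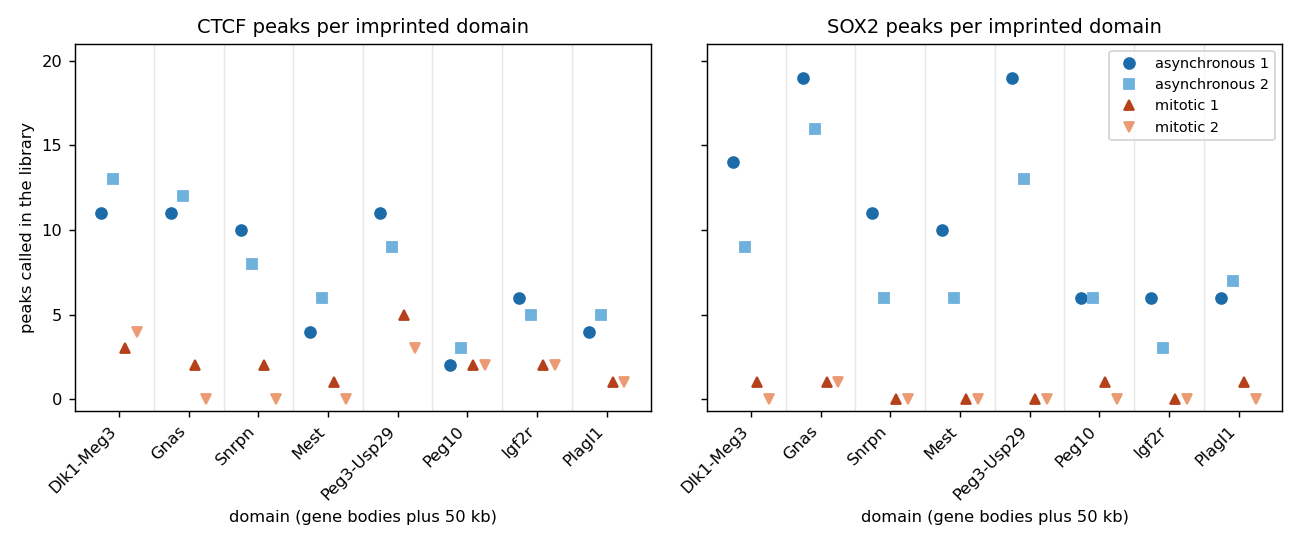
Number of CTCF (left) and SOX2 (right) peaks called in each of the 4 libraries per factor, for each of the 8 imprinted domains; 1 point is 1 library. Mitotic points lie at 0 to 5 for CTCF and at 0 or 1 for SOX2, and only in the Peg10 domain do asynchronous and mitotic CTCF libraries share a count.

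The order of the domains was not the same for the factors. Asynchronous CTCF peaks were most numerous at Dlk1-Meg3 (11 and 13), Gnas (11 and 12), Peg3-Usp29 (11 and 9) and Snrpn (10 and 8), and fewest at Peg10 (2 and 3). Among these 4 the counts of neighbours in the order met or overlapped. Asynchronous SOX2 peaks were most numerous at Gnas (19 and 16) and Peg3-Usp29 (19 and 13), followed by Dlk1-Meg3 (14 and 9). Igf2r had 6 and 3. In mitosis CTCF peaks remained in replicate 1 of every domain, at 5 for Peg3-Usp29, 3 for Dlk1-Meg3 and 1 or 2 elsewhere. Replicate 2 had 4 at Dlk1-Meg3 and none at Gnas, Snrpn and Mest. Mitotic SOX2 peaks were limited to Dlk1-Meg3, Gnas, Peg10 and Plagl1, with 1 each in replicate 1, and to Gnas in replicate 2.

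To follow single sites, overlapping peaks of the 2 asynchronous libraries were merged, and regions with a peak in both were kept as reproducible. There were 50 such CTCF regions and 51 such SOX2 regions. Asynchronous peaks left outside numbered 8 and 9 for CTCF, none above a deposited fold enrichment of 4.26, and 37 and 7 for SOX2, none above 5.74. Fold enrichment is the authors' own value for each peak, its summit coverage over a local background. Both mitotic libraries called 11 of the 50 CTCF regions, 22% (Wilson 95% interval 12.8 to 35.2%), where 24.5% of all 57992 CTCF regions of the genome were called in both. Replicate 1 alone called a further 6, and 33 regions (66%) were called in neither, the share also found over all CTCF regions (66%). Of the 51 SOX2 regions 1 was called in both mitotic libraries, 1.96% (0.347 to 10.3%), against 0.675% of all 51672 SOX2 regions. Another 3 were called in replicate 1 alone, and 47 (92.2%) in neither, against 96.6% genome-wide. Shares near the genome-wide ones are not a property of the imprinted windows, and the SOX2 count is too small to set apart from its background. These intervals cover counting error only.

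The mean share of regions called per mitotic library was 28 ± 8.49% for CTCF and 4.90 ± 4.16% for SOX2 (mean ± SD, n = 2 libraries each). CTCF libraries called 34 and 22% of these regions, beside 33 and 25.4% of all CTCF regions. SOX2 libraries called 7.84 and 1.96%, beside 3.37 and 0.755% of all SOX2 regions, and did not overlap with CTCF. That difference of 23.1 percentage points had an exact permutation p of 0.33, again the smallest possible. Over all regions the means were 29.2 ± 5.36% and 2.06 ± 1.85%.

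**Figure D2:**
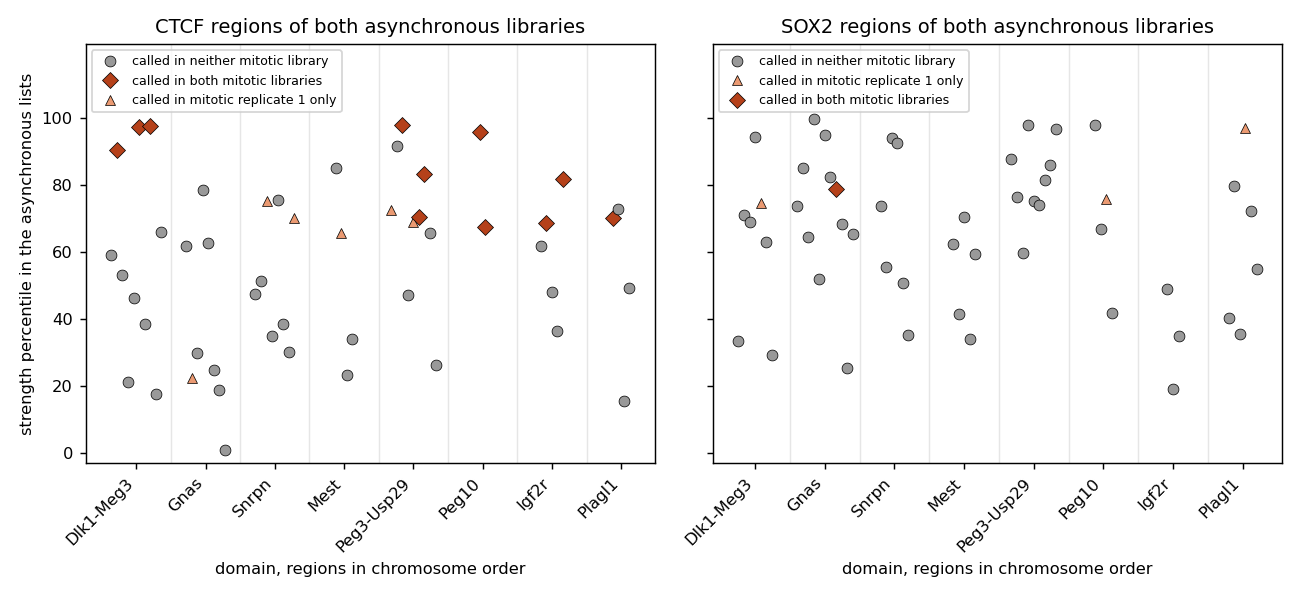
Strength of each reproducible CTCF (left) and SOX2 (right) region, by domain and in chromosome order; the y axis is the percentile of the region's fold in the asynchronous lists, averaged over both, and the symbol gives the mitotic call. The 11 CTCF regions present in both mitotic lists lie at 67.3 or higher, whereas SOX2 regions called in neither reach 99.6.

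CTCF regions that both mitotic libraries called were strong in asynchronous cells. Strength is expressed here as the percentile of a region's fold within each asynchronous list, averaged over the 2 lists. The 11 regions so called had a median percentile of 83.2 (range 67.3 to 98.0), and the 33 called in neither a median of 47.0. The 11 were also wider, with a median of 843 bp against 552 bp. Over all CTCF regions the corresponding medians were percentiles of 84.3 against 43.1 and widths of 903 against 491 bp. At or above the 90th percentile 5 of 6 regions were called in both, beside 81.2% of all CTCF regions of that class. From 75 to 90 the count was 2 of 6, beside 56.7%. From 50 to 75 it was 4 of 17, beside 18.7%. Below 50 it was 0 of 21, which allows a share of up to 14.3%, beside 0.902%. Every class's interval held the genome-wide share. SOX2 regions of the windows were stronger than the average SOX2 region, with a median percentile of 70.4 against 61.3. At or above the 90th percentile 0 of 9 were called in both mitotic lists, beside 3.38% of all SOX2 regions of that class. From 75 to 90 it was 1 of 10, beside 0.916%. From 50 to 75 it was 0 of 20, beside 0.12%, and below 50 it was 0 of 12, beside 0.0265%. The Wilson intervals of these counts of 0 reach 29.9, 16.1 and 24.2%, above the genome-wide share of each class.

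**Figure D3:**
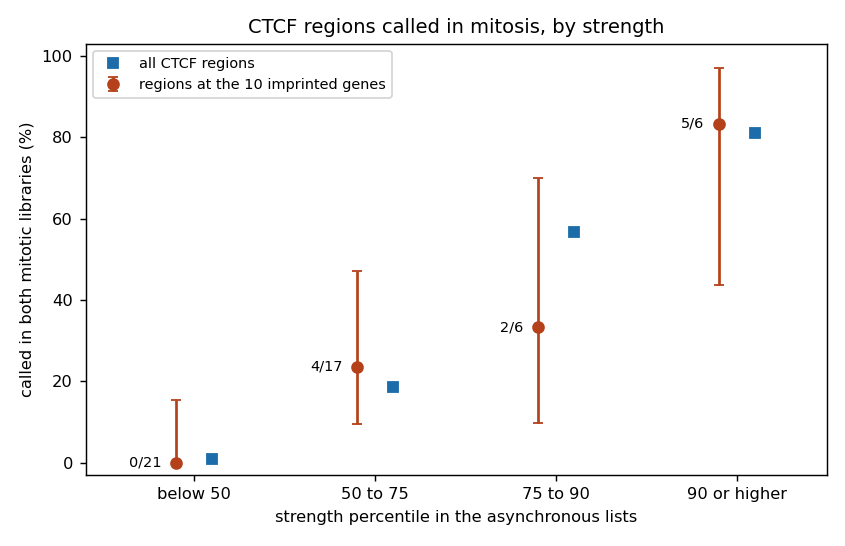
Share of reproducible CTCF regions called in both mitotic libraries (y axis, percent) by strength percentile in the asynchronous lists (x axis); red points are regions at the 10 imprinted genes with their counts and Wilson 95% intervals, blue squares are all CTCF regions. Both series climb from near 0 below the 50th percentile to above 80% at the 90th and higher.

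Dlk1, a paternally expressed transmembrane ligand, and Meg3, a maternally expressed long non-coding RNA, share a domain with 10 CTCF regions, 3 of them called in both mitotic libraries. One lay 14.2 kb before Dlk1 (chr12:109437465-109438315), in no annotated gene. Its fold was 12.8 and 11.4 in asynchronous and 7.84 and 6.19 in mitotic libraries. The next lay in Meg3 (chr12:109541750-109543305), with asynchronous summits 2067 and 2055 bp past its first start and folds of 17.3 and 14.5 against 12.6 and 7.15. This was the only site of the domain at which SOX2 was called in mitosis too. The SOX2 region (chr12:109541918-109543227) had folds of 5.95 and 6.42 in asynchronous libraries, 3.82 in mitotic replicate 1 and no peak in replicate 2. Its summits, 1264 and 1203 bp past the Meg3 start, lay nearer to a lower CTCF summit of the same region, 1160 bp past the start, which was a separate peak of fold 10.8 in asynchronous replicate 1. Mitotic CTCF replicate 2 had a separate peak there as well, at 1169 bp with a fold of 5.86.

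The third region lay in Rtl1 (chr12:109594557-109595733), a retrotransposon-derived paternally expressed gene, 22.8 kb beyond Meg3. It had the highest CTCF fold of any peak in the windows, 26.0, in asynchronous replicate 1 and 14.2 in replicate 2. In mitotic cells the folds were 4.67 and 3.86. The region overlaps 4 microRNA hairpins: Mir434 (in part), Mir432 and Mir136 on the plus strand, which are maternally expressed, and Mir3071 on the minus strand. Both asynchronous summits fell inside the Mir432 hairpin printed above, at its bases 64 and 69. Mitotic summits lay 19 and 54 bp beyond its end. That hairpin holds no match to the CTCF core. Mature products from the region differ in their seeds (bases 2 to 8, in capitals), so they share no seed family, and are shown because a single CTCF region holds them.
mmu-miR-434-3p: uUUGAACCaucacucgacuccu
mmu-miR-432: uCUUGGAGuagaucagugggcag
mmu-miR-136-5p: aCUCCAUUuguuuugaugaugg
Of the 23 microRNA hairpins annotated in the windows, 19 lie in the Dlk1-Meg3 domain. Outside it the only hairpin that met a CTCF region was Mir335 in Mest, on a region called in neither mitotic library (folds 5.44 and 3.18).

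The strongest SOX2 region of the Dlk1-Meg3 domain was at chr12:109528670-109531048, 9.95 kb before Meg3 in the uncharacterised gene Gm34081, with folds of 14.9 and 13.3. Neither mitotic library called it. All 3 reproducible SOX2 regions in Gm34081 were absent from the mitotic lists, as were 96.6% of all SOX2 regions. Dlk1 itself had only 1 SOX2 region in its window, at a percentile of 33.3.

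Igf2r, a maternally expressed receptor that clears the growth factor IGF2, had 5 CTCF regions, of which 2 were called in both mitotic libraries. The stronger was 40.7 kb away in Airn (chr17:12810375-12811055), the antisense RNA that silences Igf2r, with folds of 8.31 and 12.8 in asynchronous and 5.87 and 5.45 in mitotic cells. A weak SOX2 region with a summit 54 bp away overlapped it (folds 2.87 and 4.67) and was called in neither mitotic library. CTCF at the Igf2r promoter itself was weaker, with folds of 3.74 and 4.74 and a percentile of 36.3, and was called in neither. Its summits lay 165 and 106 bp before the transcription start, within the printed sequence, which holds 27 CpG dinucleotides where the median promoter holds 6. SOX2 summits lay 193 and 133 bp before the same start, with folds of 2.70 and 3.70, also absent from the mitotic lists. The strongest of the 3 SOX2 regions of this domain (chr17:12752889-12753440; folds 3.98 and 4.33), in the overlapping bodies of Igf2r and Airn, stood at a percentile of 48.9, the lowest maximum of the 8 domains, and was called in neither.

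Peg3, a paternally expressed zinc finger gene, and its neighbour Usp29, a deubiquitinase gene, had 9 CTCF regions, with 3 called in both mitotic libraries and 2 in replicate 1 alone. The latter lay in Zim2 (chr7:6659341-6660356; folds 9.42 and 7.62 against 3.97) and in Usp29 (chr7:6918057-6918863; folds 6.32 and 9.95 against 4.06). Peg3 carried the strongest CTCF region of all domains, with summits 2895 and 2898 bp past its start (chr7:6726880-6728258; percentile 98.0). Its folds were 22.4 and 15.0 in asynchronous and 3.69 and 4.67 in mitotic libraries. Summit reads were 167 and 164 in asynchronous and 67 and 42 in mitotic cells. The local background that divides them was 6.51 and 10.0 reads in asynchronous and 17.4 and 8.21 in mitotic libraries. SOX2 summits lay 7 to 14 bp from those of CTCF in asynchronous cells, with folds of 6.77 and 6.29, and was called in neither mitotic library. The remaining pair of regions called in both were close to each other inside Usp29. At chr7:6936937-6937726 folds were 9.22 and 7.22 against 6.94 and 5.56, and at chr7:6940640-6941402 they were 15.6 and 7.92 against 6.58 and 7.21. A region in Zim1, an imprinted zinc finger gene next to Peg3 (chr7:6688591-6689363; folds 12.9 and 11.9; percentile 91.5), was called in neither. It was the only CTCF region above the 90th percentile in the windows that mitotic cells lacked in both lists. None of the 9 SOX2 regions at Peg3 and Usp29 was called in mitosis, where 96.6% of all SOX2 regions were called in neither library. The strongest, inside Usp29 (chr7:6759933-6760875), had folds of 21.2 and 20.5. Genome-wide, 90.7% of SOX2 regions at or above the 90th percentile were also called in neither. A count of 0 of 9 allows a share of up to 33.3%.

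**Figure D4:**
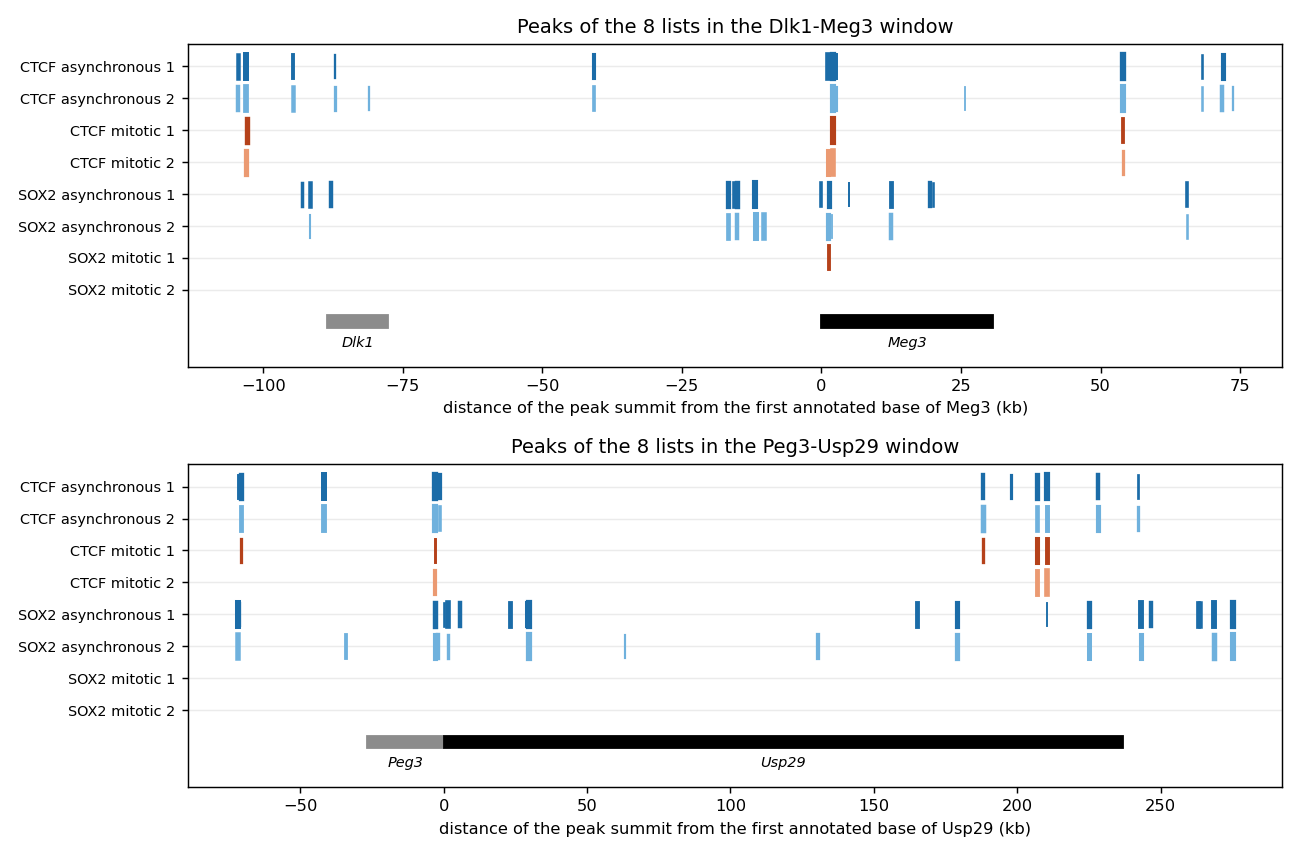
Summits of the peaks of the 8 lists across the Dlk1-Meg3 and Peg3-Usp29 windows; the x axis is the distance in kb from the first annotated base of Meg3 or Usp29, each row is 1 library, thicker ticks are peaks of a higher fold percentile in their own list, and bars mark gene bodies. Both mitotic CTCF replicates have ticks at 3 shared places per window, and at Peg3-Usp29 replicate 1 has others in Zim2 and Usp29. The mitotic SOX2 rows hold 1 tick in Meg3 and none at Peg3-Usp29.

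Peg10, a retrotransposon-derived gene needed in the placenta, had only 2 CTCF regions, and both were called in both mitotic libraries. The stronger one covered the start of Peg10 and part of Sgce, the sarcoglycan gene that shares its promoter (chr6:4746581-4747754). It kept the highest mitotic folds of any CTCF region in the windows, 14.6 and 10.5, against 17.4 and 13.0 in asynchronous cells. The second, 38.8 kb beyond Peg10 (chr6:4799299-4799911), had folds of 7.53 and 7.93 against 4.44 and 3.75. SOX2 was called in mitotic replicate 1 at 1 of the 4 SOX2 regions, inside Peg10 (chr6:4749059-4749567), with folds of 7.26 and 5.85 in asynchronous cells and 5.64 in that library, the highest mitotic SOX2 fold of the windows. The strongest SOX2 region, in Sgce 6.8 kb before Peg10 (chr6:4737943-4740515; folds 22.3 and 19.3), was called in neither.

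Plagl1, a paternally expressed zinc finger gene that restrains growth, had 4 CTCF regions and 1 called in both mitotic libraries. It lay 19.3 kb before the gene in Gm40602 (chr10:13070824-13071513), with folds of 7.84 and 8.41 against 4.56 and 3.75. The strongest CTCF region, 3.0 kb before Plagl1 (chr10:13087117-13087812; folds 9.79 and 7.40), was called in neither. Inside the gene lay one of the strongest SOX2 regions of the windows (chr10:13107638-13109511), with folds of 18.5 and 18.7 and 171 and 117 reads at the summit. Mitotic replicate 1 had a peak there of fold 2.98 with 21 reads, and replicate 2 had none.

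Snrpn, the paternally expressed splicing gene of the Prader-Willi region, and Mest, a paternally expressed hydrolase-like gene, had no CTCF region called in both mitotic libraries, with 0 of 8 and 0 of 4 regions. Those counts allow shares of up to 37.5 and 75%, beside 24.5% of all CTCF regions called in both. Replicate 1 called 2 regions at Snrpn (chr7:60238622-60239334, folds 9.57 and 8.27 against 3.86, and chr7:60487988-60488530, folds 10.3 and 6.29 against 3.27) and 1 at Mest (chr6:30736829-30737487, folds 6.47 and 8.59 against 3.15). The strongest CTCF region of each was called in neither. At Mest it lay 0.33 kb before the upstream start (chr6:30732540-30733176; folds 10.9 and 10.4; percentile 85.1), and at Snrpn far inside the long transcript (chr7:60386892-60387379; folds 9.85 and 8.05; percentile 75.4). SOX2 was dense around the downstream Snrpn start, where neighbouring regions at chr7:60005533-60007312 and chr7:60007426-60008472 had folds of 15.3 and 12.9 and of 19.9 and 9.54. None of the 6 SOX2 regions at Snrpn and none of the 5 at Mest was called in mitosis, which allows shares of up to 50 and 60%. Of all SOX2 regions 96.6% were called in neither mitotic library. Of the Mest regions one had its summits 23 and 20 bp before the upstream start, in the printed promoter, with folds of 3.57 and 4.18. Another (chr6:30737266-30737935; folds 4.15 and 3.19) had its replicate 2 summit in the printed downstream promoter, 185 bp before that start, and its replicate 1 summit 420 bp before it. The strongest, at chr6:30735738-30737084, had folds of 7.26 and 4.92.

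Gnas is an imprinted gene whose alternative promoters give maternal, paternal and biallelic transcripts, including that of the stimulatory G protein alpha subunit. It was the only domain with a SOX2 region called in both mitotic libraries, 1 of 11, beside 0.675% of all SOX2 regions. Of its 8 CTCF regions 0 were so called, which allows a share of up to 37.5%, beside 24.5% of all CTCF regions. These CTCF regions had the lowest median strength percentile of the 8 domains, 27.2. The SOX2 region called in both (chr2:174295630-174297539), inside the gene, had folds of 7.39 and 6.52 in asynchronous and 2.97 and 4.78 in mitotic libraries. These came from 59, 41, 29 and 18 summit reads. Its mitotic folds stood at percentiles 7.77 and 38.0 of their own lists. The region was not called in mitosis when peaks needed a −log10 q, or a fold, of at least 5. Mitotic summits stayed within 22 and 11 bp of the asynchronous ones. A weak CTCF region overlapped it (chr2:174295776-174296468; percentile 22.5), with folds of 2.84 and 3.97 and of 3.51 in mitotic replicate 1 alone; the CTCF and SOX2 summits of that library were 26 bp apart. The strongest SOX2 region of all domains, 22.1 kb before Gnas in no annotated gene (chr2:174260500-174262181; folds 32.1 and 31.1; 270 and 223 summit reads), was called in neither mitotic library. The strongest CTCF region, inside Gnas (chr2:174310658-174311384; folds 11.2 and 8.05), was also called in neither, and SOX2 summits lay 0 to 41 bp from those of CTCF there. CTCF summits fell 166 and 161 bp before the most upstream Gnas start, close to the core match at bases 99 to 110 of the printed promoter, in a region of folds 6.70 and 7.24 that mitotic cells lacked. At the most downstream Gnas start in the promoter table, CTCF folds were 3.97 and 2.57 and its summits lay 221 bp before and 136 bp past the start. SOX2 summits lay 243 and 175 bp before an intermediate start, with folds of 3.85 and 2.67. Gnas also held the only mitotic peak of the windows that overlapped no asynchronous peak of its factor, a CTCF peak of replicate 1 at chr2:174330376-174330587, with a fold of 3.74 and 31 reads, 467 bp past an annotated start.

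Both mitotic CTCF libraries had a called region in 5 of the 8 domains, and at least 1 of them did in all 8. For SOX2 these numbers were 1 and 4. In 4 domains the strongest CTCF region was called in both mitotic libraries, and in 7 the strongest SOX2 region was called in neither. Genome-wide, 96.6% of SOX2 regions were called in neither, and 90.7% of those at or above the 90th percentile. For CTCF 66% were called in neither and 24.5% in both. Counts of domains have no genome-wide counterpart here. They also rest on the number of regions per domain, 2 to 10 for CTCF and 3 to 11 for SOX2. The CTCF count of 5 domains became 8 without mitotic replicate 2, and the SOX2 count of 4 became 1 without mitotic replicate 1.

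Coverage at the 11 CTCF regions that both mitotic lists hold was lower in mitotic than in asynchronous cells at every one, in both replicates. The deposited lists hold no read counts, so reads at each summit were solved from the fold and the −log10 p-value and divided by the average coverage of the same library. In these units the Peg10 promoter region had 26.9 and 25.8 times the background in asynchronous and 18.7 and 13.3 times in mitotic cells. The Rtl1 region had 29.8 and 19.5 against 5.16 and 4.22, and the Peg3 region 25.6 and 22.4 against 8.86 and 5.38. The mitotic value was a median of 0.534 times the asynchronous one in replicate 1 (0.173 to 0.694) and 0.381 times in replicate 2 (0.216 to 0.618). The lowest of these ratios in each replicate was that of the Rtl1 region. Summits stayed in place, with a median shift of 17 bp (6 to 69) in replicate 1 and 39 bp (7 to 83) in replicate 2. These regions were chosen by their mitotic calls, and the lists give no coverage where no peak was called.

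**Figure D5:**
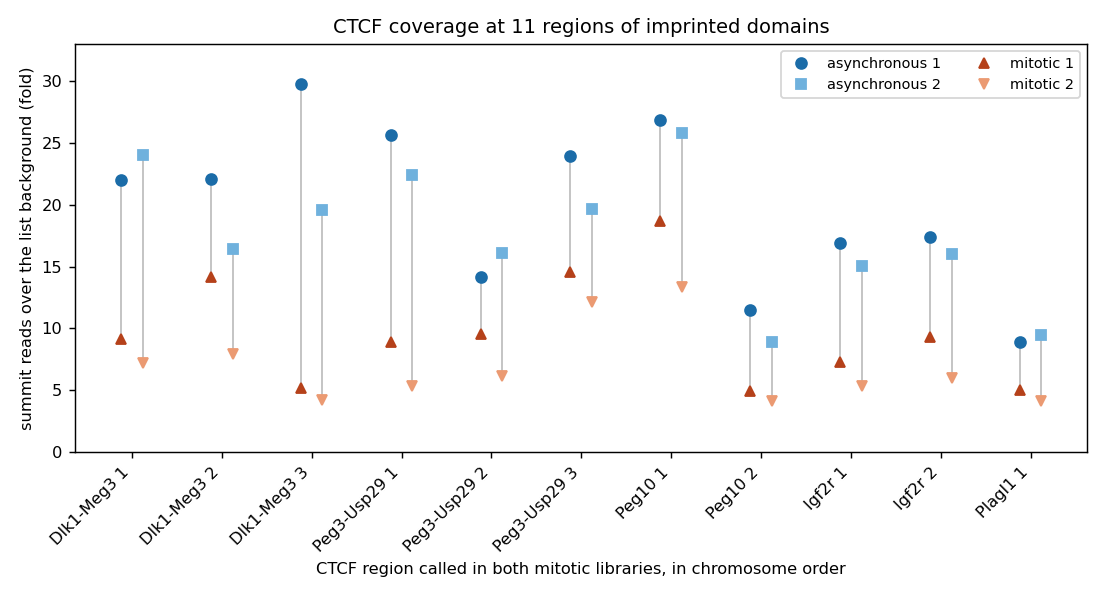
Reads at the peak summit divided by the average coverage of the same library (y axis), for the 11 CTCF regions present in both mitotic lists (x axis, by domain and numbered in chromosome order); grey lines join the asynchronous and mitotic libraries of the same replicate number. All 11 mitotic points of each replicate lie below their asynchronous partner, and the third Dlk1-Meg3 region, in Rtl1, shows the widest gap.

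The factors met in every domain. Of the 51 SOX2 regions 13 overlapped a CTCF region by at least 1 bp, 25.5% (15.5 to 38.9%), against 20.3% of all SOX2 regions. In turn 15 of the 50 CTCF regions overlapped a SOX2 region, 30% (19.1 to 43.8%), against 18.3% of all CTCF regions. Regions of the windows were wider, with medians of 760 against 658 bp for SOX2 and 659 against 608 bp for CTCF. Whether width bears on the overlap was not tested. With the highest summit of each asynchronous library, every CTCF and SOX2 summit lay within 100 bp of each other in 6 of the 13. Of the CTCF regions present in both mitotic lists 4 overlapped SOX2, in Meg3, Airn, Peg10 and Peg3, and of these only the one in Meg3 had a mitotic SOX2 peak. Requiring a fold of at least 5 lowered the SOX2 share that overlaps to 11.5%.

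For 9 of the 10 genes the RefSeq promoter table held 18 distinct windows of 250 bases before to 50 after a start. CTCF regions overlapped 5 of them (27.8%) and SOX2 regions 6 (33.3%), beside 14.9 and 24.9% of the 32815 distinct windows of all promoters. A summit of either factor fell in 8 (all those of Gnas and Mest, and Igf2r), beside 17.4% of all windows. Of the 18 windows 0 overlapped a region called in either mitotic library, which allows a share of up to 16.7%, beside 9.81% of all windows. Some windows of a gene overlap each other, so the 18 are not independent. With all annotated genes, 9 CTCF regions had both summits within 1 kb of a start, of which 0 appeared in both mitotic lists and 1 in that of replicate 1. A count of 0 of 9 allows up to 33.3%, and 24.4% of all CTCF regions so placed were called in both. SOX2 had 8 such regions, all called in neither, where 1.84% of all such SOX2 regions were called in both. The ZFP57 hexamer stood in 4 of the 18 upstream sequences, in Meg3, Plagl1 and the paired downstream Mest starts, which overlap each other; 8.68% of the 32817 promoters in the table hold it. The CTCF core was found in 1 of the 18 (7.16% of all), the SOX core CATTGT or CTTTGT in 1 (25.2%) and the YY1 core AAGATGGC in 0 (1.56%), each searched on both strands.

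Other genes of the same loci and of the imprinting machinery gave CTCF shares called in both mitotic libraries near the genome-wide one of 24.5%. Of 26 neighbouring imprinted genes 23 were found in the gene table; their windows held 83 CTCF regions, of which 19 (22.9%) were in both mitotic lists, and 91 SOX2 regions, of which 1 was. Many of these regions are also those of the 10 genes. Ndn, Magel2 and Mkrn3, which lie in the same imprinted region as Snrpn but outside its window, had 1 of 5, 2 of 6 and 4 of 9 CTCF regions called in both, and Peg12 had 3 of 4, with regions shared between these neighbours. Snurf had 0 of 1, Ube3a 0 of 3 and Snhg14 0 of 11. The 8 genes of imprint maintenance, which encode ZFP57, ZFP445, TRIM28, SETDB1, UHRF1, DNMT1, DNMT3L and DPPA3, had 89 CTCF regions with 16 called in both (18.0%) and 78 SOX2 regions with 1. Replicate 1 alone called a further 8 of these 78 SOX2 regions, and 3 of the 91 of the neighbours. Over all 51672 SOX2 regions 1432 were called in 1 mitotic library only. At the 6 genes of the H19-Igf2 and Kcnq1 domains 8 of 29 CTCF regions (27.6%, 14.7 to 45.7%) and 1 of 23 SOX2 regions were called in both. None of the SOX2 regions of these domains was called in replicate 1 alone. The intervals of the 10 genes and of these domains overlap, and a difference between them was not tested.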

How the data were processed

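Peak lists of 8 ChIP-seq libraries were used, 2 for each of CTCF and SOX2 in asynchronous and mitotic cells, grouped by their titles. The submitters' processing notes name MACS2 2.1.1.20160309, BWA 0.7.17, CASAVA 1.4, SAMtools and the build mm10, without roles or options. Which control library was used is not given in the sources used here. Each library has its own deposited list, with no pooling of replicates. Fold is the authors' deposited ratio of summit coverage to a local background. The deposited −log10 p and −log10 q are for that summit, and q-values start at a −log10 of 1.31 to 1.48. The deposited integer score is 10 times the −log10 q and was not used. Folds were ranked within their own list only.

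Peaks of both asynchronous libraries were merged where they overlapped, and a region counts as called in mitosis where a peak of that library covers 1 bp or more of it. Summit reads and local background were solved from fold and p under MACS2's Poisson model with a pseudocount of 1; whole reads, within 0.002, came out for 97.8 to 100% of up to 2000 peaks per list. The most common local background of a list, held by 18.0 to 49.9% of its solved peaks, was taken as the average coverage. For reads per 100 bp it was divided by the width of the shortest peak of the list. Gene bodies, promoters and microRNAs came from RefSeq tables on GRCm38.p6. Nespas, Mestit1 and Zfp264 had no match by symbol. No genome sequence was used, so motifs were searched in promoters and hairpins only. Groups of 2 libraries were compared by two-sided exact permutation tests, and shares have Wilson intervals at 95% confidence. An upper limit for a count of 0 is 3 counts of the total. The code was tested on simulated data. Replicate numbers come from the titles. Deviations of same-numbered libraries were not correlated (-4.8e-05 over CTCF and -0.053 over SOX2 regions), so no main test pairs libraries by number. Only the replicate block, an alternative given at the end, does so. Mitotic to asynchronous coverage ratios and summit shifts set libraries of the same number side by side as a description only. No interval was identical in both replicates of a group. Python 3.11.15, numpy 2.4.6, scipy 1.17.1 and matplotlib 3.10.9 were used.

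The members and gene lists were chosen with earlier results of these data known. Regions named were those called in mitosis, the strongest per domain and those with a summit in a member's promoter; the Zim1 region, the CTCF regions called in replicate 1 alone, the second SOX2 region at the downstream Snrpn start, the Gm34081 regions, the neighbouring genes given with their counts and Mir335 were picked after their values were seen. The values of one Igf2r region called in mitosis are not reported here.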

Additional observations from a re-analysis of the deposited data

How the results depend on the processing

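Alternatives were stricter peaks (fold, or −log10 q, of 5 or more), windows of 10 and 100 kb, summits no more than 100 bp apart or 50% of the shorter interval shared, regions found in only one asynchronous library as well, and each library left out. None of these turned the direction of a comparison. By the rules set, 88 of 95 values of the main results counted as unmoved, those of the replicate block below included. For peak ratios and the difference between factors this asked only for the same direction. Mean shares had to move by less than the SD between mitotic libraries, which leaving out 1 of those 2 libraries cannot exceed. The overlap share had to stay in its Wilson interval, and domain counts within 1.5 times. SOX2 values could still change widely. Its ratio of 31.4 was 61.5 at a −log10 q of at least 5 and 69 at a fold of at least 5. It was 22 and 43.4 with windows of 10 and 100 kb and 19.6 to 78.5 when a library was left out. Its mean share of 4.90% was 2.38, 1.92, 6.94 and 3.33% under the same alternatives, 2.63% with regions of only one asynchronous library as well, and 1.96 to 7.84% when a library was left out. The number of domains with a CTCF region called in both mitotic libraries, 5, was 3 with a window of 10 kb, and 5 to 8 when a library was left out. The number with a SOX2 region called in mitosis, 4, was 2 at a −log10 q of at least 5, 1 at a fold of at least 5, and 1 to 4 when a library was left out. The share of SOX2 regions that overlap CTCF, 25.5%, was 11.5% at a fold of at least 5 and 9.30% with summits within 100 bp, where fewer regions qualify. The cause was not tested for the others. By the same 1.5 times rule 21 of 176 counts per domain moved. With a replicate block, comparing libraries of the same number, the asynchronous to mitotic ratio was 4.08 for CTCF and 38.7 for SOX2, the shares were 24.3 and 2.96%, their difference was 21.3 percentage points, and the exact permutation p of each test was 0.5, the smallest 2 pairs allow. Counts below a few peaks, as in the mitotic SOX2 lists, limit every SOX2 statement.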
